A study of Mus musculus with 12 samples.

Results

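Integrins are surface receptors made of an alpha and a beta subunit, and the 10 genes described here encode the subunits that macrophages are best known to use: Itgal, Itgam, Itgax, Itga4, Itga6 and Itgav for alpha chains and Itgb1, Itgb2, Itgb3 and Itgb5 for beta chains. They were taken by symbol from a table of 55401 genes, and each of the 10 symbols matched 1 row. Bulk RNA sequencing had been performed on macrophages grown for 7 days from the bone marrow of mice of the C57BL6 background in medium with 20 ng/mL of macrophage colony-stimulating factor (M-CSF), the cytokine that drives marrow cells to become macrophages. The old group held 6 libraries from animals aged 12 months and the young group 6 libraries from animals aged 8 weeks. The labels call the 6 libraries of a group biological replicates and do not say whether each came from its own animal, so the p-values below rest on the spread from library to library, which may in part be technical. The labels name no transgene and no treatment other than M-CSF, the series' title speaks of nanoparticles but no nanoparticle is named in the culture protocol, and the sex of the animals was not stated.

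Depth was 19.3 to 22.4 M assigned counts in old and 22.2 to 25.2 M in young libraries (1 M is 1000000 counts). All 12 libraries carried the transcripts of macrophages: 8 of 8 macrophage marker genes (Adgre1, Csf1r, Cd68, Lyz2, Mertk, Fcgr1, Mrc1 and Cd14) were detected, with a summed level of 32779 to 44005 counts per 1000000 assigned (CPM) in old and 27282 to 45250.4 CPM in young libraries. Several libraries stood apart before any test. T and NK cell genes summed to 33.2 CPM in old replicate 6, with Cd8a at 12.6 CPM and Nkg7 at 8.60 CPM, against 0.0930 to 0.271 CPM in the other old libraries and at most 0.0884 CPM in young ones. Proliferation genes (10, among them Mki67 and Top2a) summed to 1158 CPM in old replicate 2, 734 CPM in old replicate 3 and 1619.7 CPM in young replicate 6, against 169.5 to 239 CPM in the other old and 229 to 585 CPM in the other young libraries. Young replicate 6 also had the lowest macrophage sum.

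As background, alpha and beta chains reach the cell surface as pairs, and the pair sets what is bound. Itgb2 (beta 2, CD18) is made by leukocytes and pairs with Itgal (alpha L, CD11a) to form LFA-1, with Itgam (alpha M, CD11b) to form Mac-1 or complement receptor 3, and with Itgax (alpha X, CD11c) to form complement receptor 4. These receptors bind ICAM adhesion molecules and, for Mac-1 and complement receptor 4, particles coated with the complement fragment iC3b. Itgb1 (beta 1) pairs with Itga4 to bind VCAM-1 and fibronectin and with Itga6 to bind laminin, while Itgav (alpha v) pairs with Itgb1, Itgb3 and Itgb5 to bind proteins such as vitronectin.

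Itgam and Itgax lie next to each other on chromosome 7 and share the beta 2 partner, yet across libraries Itgam was among the steadiest of the 10 genes and Itgax among the most variable, and Itgav was high in the same 2 libraries as Itgax. Their promoters are shown for that reason, as RefSeq sequence of GRCm38.p6 from 250 bases before to 50 bases after the start. Capitals mark GAGGAA on either strand (TTCCTC when read on the other), a core bound by the myeloid transcription factor PU.1, the product of Spi1.
Itgam promoter, chr7:128062390-128062689, plus strand: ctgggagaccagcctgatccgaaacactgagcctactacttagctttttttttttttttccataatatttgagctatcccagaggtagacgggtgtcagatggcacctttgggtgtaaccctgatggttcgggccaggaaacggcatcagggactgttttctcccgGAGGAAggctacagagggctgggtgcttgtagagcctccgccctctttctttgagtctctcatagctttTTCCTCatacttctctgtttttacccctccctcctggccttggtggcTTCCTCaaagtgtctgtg
Itgax promoter, chr7:128129300-128129599, plus strand: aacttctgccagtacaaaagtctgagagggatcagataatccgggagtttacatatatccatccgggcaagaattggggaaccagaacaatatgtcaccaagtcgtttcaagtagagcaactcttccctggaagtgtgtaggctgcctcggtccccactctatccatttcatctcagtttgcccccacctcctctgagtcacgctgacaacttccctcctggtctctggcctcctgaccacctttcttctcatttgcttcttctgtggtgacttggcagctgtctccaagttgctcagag
Itgav promoter, chr2:83724147-83724446, plus strand: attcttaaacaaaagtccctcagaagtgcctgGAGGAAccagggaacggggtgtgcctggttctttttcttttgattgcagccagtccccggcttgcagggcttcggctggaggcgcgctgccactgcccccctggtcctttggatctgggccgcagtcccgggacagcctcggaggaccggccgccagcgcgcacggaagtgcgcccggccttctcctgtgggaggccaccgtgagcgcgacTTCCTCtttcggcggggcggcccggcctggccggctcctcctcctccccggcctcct
The Itgam window held 3 matches, which begin 84 and 15 bases before and 32 bases after the start, and the Itgav window held 2, which begin 218 and 7 bases before it. No match was found in the Itgax window. Of the 10 genes, 6 had a promoter entry, and the motif was found in 3 of these 6 (Itgam, Itgav and Itgb1). It was found in 28.3% of all 32851 promoter windows. The letters TATAAA were found on neither strand in any of the 6, and in 13.6% of all windows. Spi1 itself was at 483 ± 33.4 CPM in old and 537 ± 67.1 CPM in young libraries (SD, n = 6 each), with an edgeR adjusted p of 0.77.

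On the full exon length, Itgb2, Itgb5 and Itgb1 were the 3 most abundant of the 10 transcripts, while the beta chain Itgb3 lay among the lowest. Per kilobase of the exon length in the table, Itgb2 stood highest at 274 ± 30.0 CPM per kilobase in old and 278 ± 27.7 CPM per kilobase in young libraries (SD, n = 6 each). Itgb5 came next at 124 ± 3.80 CPM per kilobase in old and 122 ± 9.38 CPM per kilobase in young libraries, and Itgb1 was at 123 ± 7.69 CPM per kilobase in old and 122 ± 9.87 CPM per kilobase in young libraries. Itgb5 and Itgb1 could not be ordered, since their ranges over libraries overlapped and Itgb5 was the higher in 7 of 12 libraries. Every library had Itgb2 above both. Among the 6 alpha chains of the 10, Itgam was the most abundant at 29.5 ± 1.96 CPM per kilobase in old and 33.9 ± 2.29 CPM per kilobase in young libraries, and Itga6 followed at 15.96 ± 0.823 CPM per kilobase in old and 14.8 ± 2.29 CPM per kilobase in young libraries. The range of Itgam overlapped neither that of Itgb1 nor that of Itga6. The remaining 5 genes lay close together, with group means from 4.51 CPM per kilobase for Itga4 in young libraries to 7.19 CPM per kilobase for Itgax in old ones. Each neighbouring pair among Itgal, Itgax, Itgb3, Itgav and Itga4 overlapped in range, and so did Itga6 and Itgal, so no order is given for them.

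**Figure D1:**
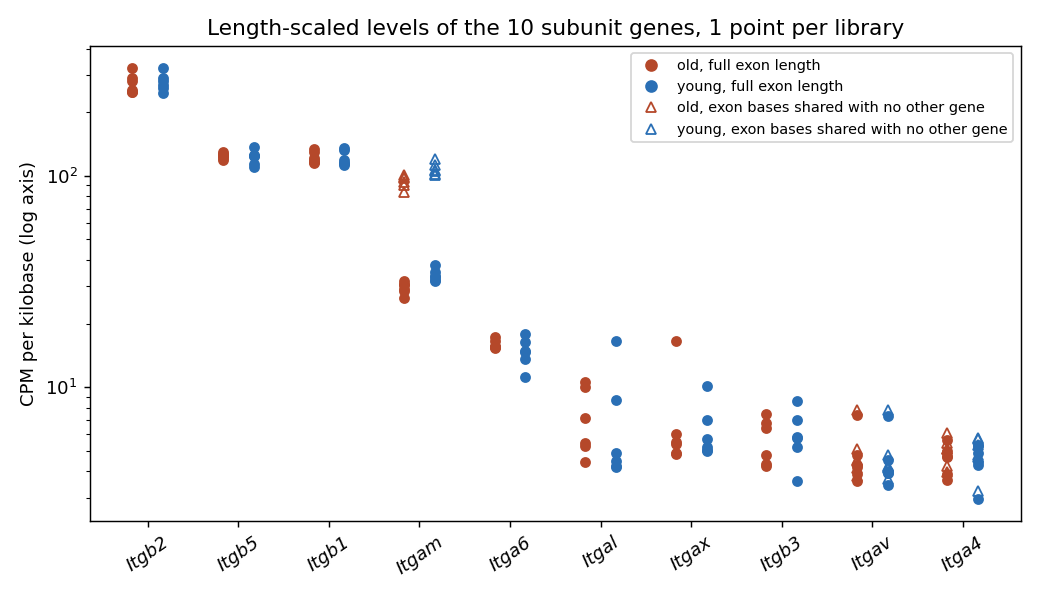
Length-scaled level (CPM per kilobase, log axis) of each subunit gene in each library, old libraries left of young, ordered by mean level. Filled circles use the full exon length and open triangles, drawn where they differ, the exon bases that no other gene shares; Itgam moves to 83.9 to 121 CPM per kilobase and then overlaps Itgb1.

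The level of Itgam was understated by the way its reads were counted. Of its 5024 exon bases, 3450 (68.7%) are also exons of Gm49368 (ENSMUSG00000108596), a gene annotated on the same strand that repeats many Itgam exons and ends in 1 further exon of its own (chromosome 7, 128126808 to 128128160 in GRCm38). With the options recorded in the table's header, the counting tool leaves out a read that touches exons of more than 1 gene, so reads in the shared exons reached neither row. Gm49368 itself had 0 to 5 counts per library and 28 in all 12, against 2549 to 4388 per library for Itgam. What was counted for Itgam came from 1574 bases (31.3% of its exon length), of which 1117 lie after the last coding base, in the 3′ UTR. The longest unshared stretch is 1186 bases, from 128117306 to 128118491. Of the 3599 coding bases in the GENCODE M21 annotation, 94.2% were shared.

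Scaled to those unshared bases alone, Itgam was at 94.2 ± 6.26 CPM per kilobase in old and 108 ± 7.30 CPM per kilobase in young libraries (SD, n = 6 each). On that scale it overlapped Itgb1 in range, although Itgb1 was still the higher in 11 of 12 libraries. Reads that cross from an unshared into a shared stretch were left out too. This scale may therefore still understate Itgam, and the order of Itgam and Itgb1 is not settled. Itga4 and Itgav share 8.04% and 5.90% of their exon bases with Cerkl and Gm13684 on the opposite strand, which in counts made without strand has the same effect on a smaller scale. The other 7 genes share none. Scaled to the longest coding transcript instead, Itga6 was at 33.9 ± 1.75 CPM per kilobase in old and 31.3 ± 4.85 CPM per kilobase in young libraries, beside 31.7 ± 2.10 CPM per kilobase in old and 36.3 ± 2.45 CPM per kilobase in young libraries for Itgam, and these 2 genes then overlapped in range.

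**Figure D2:**
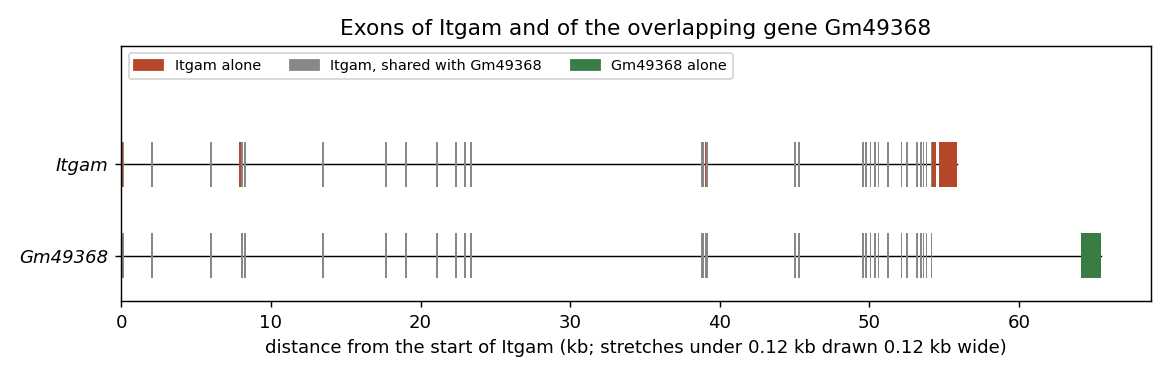
Exons of Itgam (upper line) and Gm49368 (lower line) by distance from the start of Itgam, in kb. Grey exons belong to both genes and their reads were left out of both counts; red marks the 1574 bases of Itgam alone, most of them at its 3′ end, and green the 1353 bases of Gm49368 alone.

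The question the groups address is whether these levels differ between old and young macrophages. Over the 12620 genes tested with edgeR's quasi-likelihood method, 0.0158% had an adjusted p below 0.05, and none of the 10 subunits was among them. In this test 1 of the 10 genes, Itgam, had an unadjusted p below 0.05, lower in old, against 5.47% of all genes tested (3.23% higher and 2.24% lower in old). DESeq2 and limma voom, run on the same counts, also called 0 of the 10 and placed Itgam alone below an unadjusted 0.05. Over all 12620 genes, DESeq2 placed 6.03% and limma voom 5.30% below that value. They called 11 and 3 genes. The log2 fold changes (old over young) were positive for 6 of 10 genes with a median of 0.02, beside 47.5% positive and a median of -0.01 over all genes. No subunit separated the groups completely, as 0.206% of all genes did.

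Among the beta 2 partners, Itgam (ENSMUSG00000030786; chromosome 7, 128062640 to 128118491, plus strand, GRCm38) was at 132, 150.2 and 159 CPM in old libraries and 159, 167 and 190.0 CPM in young libraries (lowest, median and highest of 6). All old libraries other than replicate 2 lay below every young library, and old replicate 2 differed from young replicate 3 by under 1 CPM. The means were 148 ± 9.85 CPM in old and 170.2 ± 11.5 CPM in young libraries (SD, n = 6 each). The log2 fold change was -0.20, with a standard error of 0.06 and an edgeR adjusted p of 0.77. Its unadjusted p was 0.0081, rank 61 of 12620 genes, so this difference did not pass the adjustment. Old replicate 6, the library with T cell transcripts, held the lowest Itgam level of all, and without it the log2 fold change was -0.16. Neutrophils and monocytes also carry Itgam: the 10 neutrophil genes summed to 98.2 to 219.8 CPM in old and 48.4 to 213 CPM in young libraries, and the 5 monocyte genes to 55.3 to 107 CPM in old and 33.9 to 86.9 CPM in young libraries. Most of the neutrophil sum was Csf3r alone, at 136 ± 35.3 CPM in old and 121 ± 46.2 CPM in young libraries. Of the 10 neutrophil genes, 5 had a mean below 1 CPM. Both lists were lowest in young replicate 6, and their part in the Itgam level was not tested. In bulk RNA, fewer cells that carry a transcript and less of it per cell cannot be told apart. The Itgam counts came from its 1574 unshared exon bases, 1117 of them in the 3′ UTR, so the difference was read from that part of the gene alone.

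Itgal (chromosome 7, 127296260 to 127335138), the alpha chain of LFA-1, was at 29.2, 41.4 and 69.7 CPM in old libraries and 27.5, 30.7 and 109 CPM in young libraries (lowest, median and highest of 6). The highest level was in young replicate 6 and the next in old replicates 3 and 6 and young replicate 3, so high libraries were found in both groups. For Itgal the log2 fold change was -0.002, with a standard error of 0.38 and an edgeR adjusted p of 0.998. The 95% interval of that value ran from -0.75 to 0.75, so these libraries do not exclude a difference of either sign within that range. T cells also carry Itgal. Old replicate 6 had T cell genes, whereas old replicate 3, with 69.7 CPM of Itgal, had T and NK cell genes at 0.267 CPM. Their part in the spread of Itgal was not tested.

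Itgax (chromosome 7, 128129547 to 128150657), which marks dendritic cells and some tissue macrophages, was at 23.2, 26.2 and 79.5 CPM in old libraries and 24.0, 26.2 and 48.8 CPM in young libraries (lowest, median and highest of 6). Old replicate 6 was far above the rest and young replicate 6 was next, while the other 10 libraries lay between 23.2 and 33.5 CPM. Between the groups the log2 fold change was 0.18, with a standard error of 0.33 and an edgeR adjusted p of 0.90, and without old replicate 6 the log2 fold change turned to -0.26. The 6 dendritic cell genes summed to 8.76 CPM in old replicate 6, 5.08 of them from Ccr7, against 2.52 to 3.33 CPM in the other old and 2.45 to 4.42 CPM in young libraries. Flt3 and Zbtb46 stayed below 1 CPM in all 12. The 5 monocyte genes did not stand alike in that library. Ly6c2 was at 22.5 CPM there and at most 1.502 CPM elsewhere, F13a1 was at 9.38 CPM against 7.91 to 63.6 CPM in the other old libraries, and the list's sum of 92.8 CPM was below the 107 CPM of old replicate 4. Atp6v0d2, a proton pump subunit known from osteoclasts, was at 335 CPM, its highest level. The osteoclast list summed to 366 CPM there, against 75.7 to 161 CPM in the other old and 89.8 to 138 CPM in young libraries, with Calcr at 0 in all 12. Most of the 366 CPM was Atp6v0d2 itself, which was at 57.7 CPM or more in all 12 libraries. Of the 8 genes of that list, 3 had a mean below 1 CPM. Whether cells of any of these types had a part in the Itgax level was not tested.

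The common partner Itgb2 (chromosome 10, 77530252 to 77565708) was at 758, 814 and 988 CPM in old libraries and 749, 839 and 993 CPM in young libraries (lowest, median and highest of 6). Replicate 6 was highest in each group. For Itgb2 the log2 fold change was -0.02, with a standard error of 0.09 and an edgeR adjusted p of 0.96. In each library the summed length-scaled level of Itgal, Itgam and Itgax was below that of Itgb2. How far below depended on the length used for Itgam, which the full exon length understates. The ratio was 0.160 ± 0.00622 in old and 0.170 ± 0.00767 in young libraries on the full exon length, and 0.399 ± 0.0381 in old and 0.438 ± 0.0251 in young libraries on unshared bases (SD, n = 6 each). Itgam stood at 1.59 times Itgax in old replicate 6 and 3.29 times Itgax in young replicate 6, against 5.11 to 6.33 times in the other old and 4.55 to 6.73 times in the other young libraries, on the full exon length. On unshared bases the ratio was 5.07 in old replicate 6 and 10.5 in young replicate 6, against 16.3 to 20.2 in the other old and 14.5 to 21.5 in the other young libraries. On both scales these 2 libraries had the most Itgax beside Itgam.

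**Figure D3:**
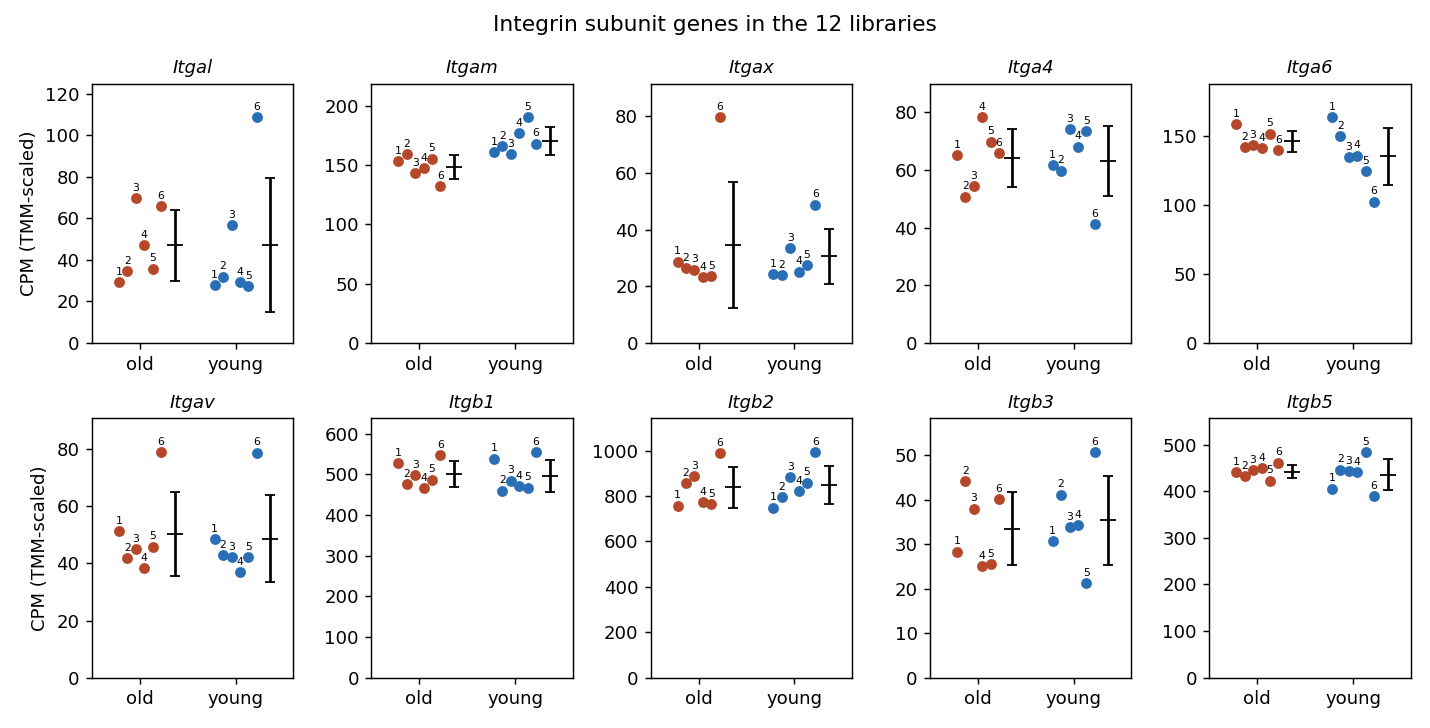
CPM of each subunit gene in the 12 libraries, old left of young, with replicate numbers beside the points and mean ± SD at the right of each group (n = 6). Itgam lay at 132 to 159 CPM in old and 159 to 190.0 CPM in young libraries; replicate 6 stands apart in Itgax and Itgav in both groups.

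Of the alpha chains that pair with beta 1, Itga6 (chromosome 2, 71745616 to 71858416), a laminin receptor chain, was at 139.5, 142 and 159 CPM in old libraries and 102, 135 and 163 CPM in young libraries (lowest, median and highest of 6). Old libraries were close together, and 4 of 6 young libraries lay below all of them, with young replicate 6 the lowest. For Itga6 the log2 fold change was 0.11, with a standard error of 0.09 and an edgeR adjusted p of 0.79, and without young replicate 6 the log2 fold change was 0.05. Itga4 (chromosome 2, 79255426 to 79333123), the chain that binds VCAM-1, was at 50.7, 65.5 and 78.2 CPM in old libraries and 41.2, 64.9 and 74.2 CPM in young libraries (lowest, median and highest of 6). Old replicates 2 and 3 and young replicate 6, the libraries highest in proliferation genes, held its 3 lowest levels. Old and young libraries overlapped throughout, and the log2 fold change was 0.02, with a standard error of 0.14 and an edgeR adjusted p of 0.97.

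Itgav (chromosome 2, 83724397 to 83806916), the chain that binds vitronectin-like ligands, was at 38.4, 45.4 and 78.9 CPM in old libraries and 37.0, 42.6 and 78.8 CPM in young libraries (lowest, median and highest of 6). Replicate 6 of each group was high, at 78.9 CPM in old and 78.8 CPM in young macrophages, and the other 10 libraries lay between 37.0 and 51.4 CPM. Both groups held a high library, and the log2 fold change was 0.05, with a standard error of 0.21 and an edgeR adjusted p of 0.96. The 2 libraries differed in what else they held: proliferation genes summed to 176 CPM in old replicate 6 and 1619.7 CPM in young replicate 6, and T and NK cell genes to 33.2 CPM in old replicate 6 and 0.0404 CPM in young replicate 6.

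Itgb1 (chromosome 8, 128685654 to 128733200), the beta chain with the most partners, was at 467, 492 and 548 CPM in old libraries and 460.0, 478 and 554 CPM in young libraries (lowest, median and highest of 6). The same libraries, replicates 1 and 6 of each group, held its 4 highest levels. For Itgb1 the log2 fold change was 0.01, with a standard error of 0.07 and an edgeR adjusted p of 0.97, with a 95% interval from -0.12 to 0.15. On the full exon length, the summed level of Itga4, Itga6 and Itgav was 0.206 ± 0.00905 of that of Itgb1 in old and 0.197 ± 0.0202 in young libraries (SD, n = 6 each), with the lowest ratio, 0.158, in young replicate 6. This sum depends on the lengths used and leaves out Itga5, which also pairs with beta 1. Scaled to the longest coding transcript, Itga6 alone was at 33.9 ± 1.75 CPM per kilobase in old and 31.3 ± 4.85 in young libraries. Itgb1 was then at 131 ± 8.22 in old and 130 ± 10.6 in young libraries.

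The beta partners of Itgav differed in level and in spread. Itgb5 (chromosome 16, 33829665 to 33949338), which pairs with alpha v alone, was at 423, 443 and 462 CPM in old libraries and 389, 442 and 484 CPM in young libraries (lowest, median and highest of 6). It was the steadiest of the 10 genes, with a coefficient of variation of 5.36% (mean of both groups) against a median of 10.9% over the 6528 genes of at least 20 CPM. Its old-over-young log2 fold change was 0.02, with a standard error of 0.06 and an edgeR adjusted p of 0.93, with a 95% interval from -0.10 to 0.14. Itgb3 (chromosome 11, 104608000 to 104670476), known from platelets and osteoclasts, was at 24.97, 33.1 and 44.1 CPM in old libraries and 21.2, 34.1 and 50.6 CPM in young libraries (lowest, median and highest of 6). It was highest in young replicate 6 and old replicate 2, which were also highest in proliferation genes, and lowest in young replicate 5. The part of proliferation was not tested. For Itgb3 the log2 fold change was -0.08, with a standard error of 0.20 and an edgeR adjusted p of 0.94. The 7 megakaryocyte and platelet genes summed to 21.3 to 52.0 CPM in old and 26.0 to 43.3 CPM in young libraries. Most of that was Pf4, a chemokine gene that macrophages also express, at 33.0 ± 10.3 CPM in old and 33.0 ± 5.82 CPM in young libraries (SD, n = 6 each). Old replicate 2 and young replicate 6 were the highest of their groups in both Pf4 and Itgb3, and the part of megakaryocytes or platelets was not tested. Gp1bb and Gp6 had no count in any library, and Itga2b, the platelet partner of Itgb3, was at 0.833 ± 0.294 CPM in old and 0.606 ± 0.230 CPM in young libraries. On the length scale Itgb5 was 16.3 to 29.9 times Itgb3 in old and 12.8 to 37.9 times in young libraries, and Itgav was 0.0358 ± 0.00944 of the sum of both in old and 0.0357 ± 0.0135 in young libraries (SD, n = 6 each).

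**Figure D4:**
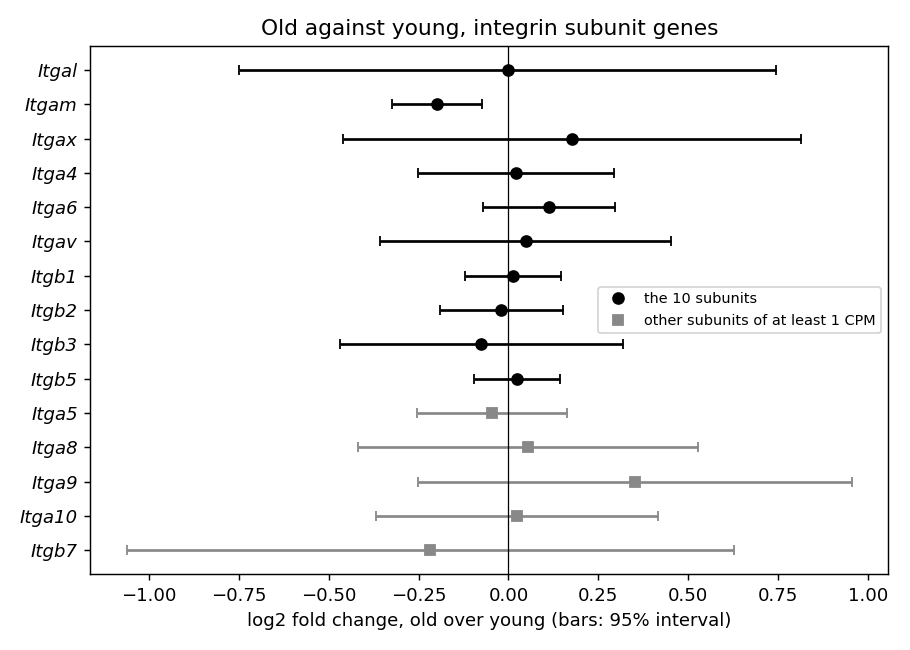
Log2 fold change (old over young) of the 10 subunit genes (black) and of the 5 other subunit genes of at least 1 CPM (grey), with bars of the 95% interval. Itgam, at -0.20, is the 1 gene whose bar does not reach 0, and it did not pass the adjustment over all genes.

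Libraries of a group differed more in some subunits than in others. The coefficient of variation was 52.5% for Itgal, 47.8% for Itgax, 30.3% for Itgav and 26.4% for Itgb3, which placed these 4 above 92.8% or more of the genes of at least 20 CPM. Itgb5, Itgam (6.70%), Itgb1 (7.19%), Itga6 (10.3%) and Itgb2 (10.4%) lay under the median of those genes, and Itga4 (17.6%) lay above it. Replicate 6 supplied the group's highest level of 5 of the 10 genes in old (Itgax, Itgav, Itgb1, Itgb2 and Itgb5) and 6 of the 10 in young libraries (Itgal, Itgax, Itgav, Itgb1, Itgb2 and Itgb3). Genes high in both were Itgax, Itgav, Itgb1 and Itgb2. With both libraries left out together, 0 of 10 genes passed, and the log2 fold change was -0.17 for Itgam and -0.07 for Itgax.

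**Figure D5:**
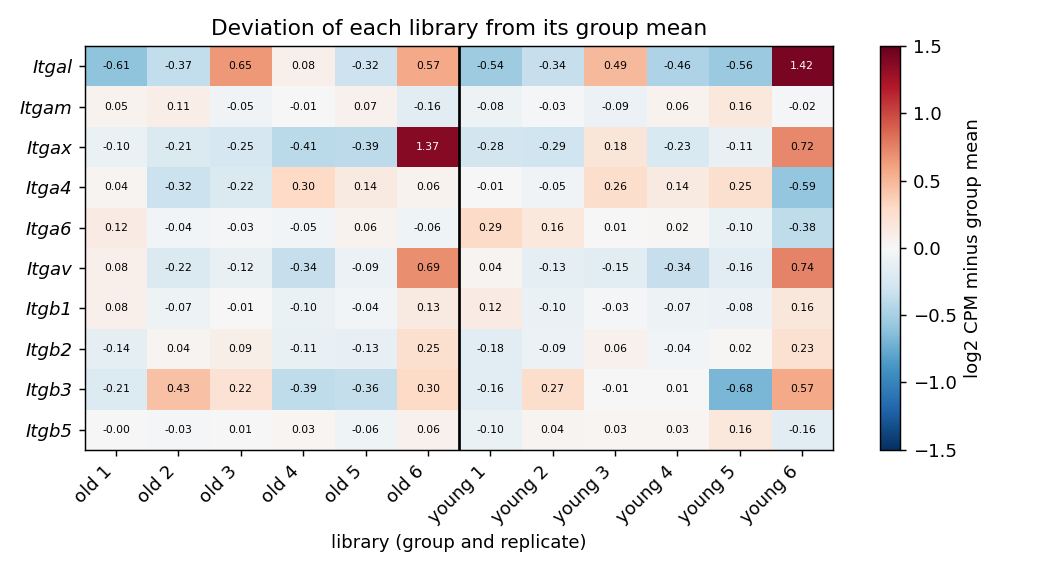
Deviation of each library from its group mean, in log2 CPM, for the 10 subunit genes (rows) in old (left) and young (right) libraries. Itgax in old replicate 6 (1.37) and Itgal in young replicate 6 (1.42) deviate most, and the rows of Itgam and Itgb5 stay near 0.

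Of the other integrin subunits, 5 reached 1 CPM. Itga5, the fibronectin receptor chain that pairs with beta 1, was at 27.6 ± 2.34 CPM per kilobase in old and 28.5 ± 5.33 CPM per kilobase in young libraries on the full exon length, and Itgb7, the other beta partner of Itga4, at 29.4 ± 16.1 CPM per kilobase in old and 34.2 ± 16.2 CPM per kilobase in young libraries (SD, n = 6 each). Both group means of each lay above those of Itga6. On that scale, which understates Itgam, Itga5 overlapped Itgam in range and was above it in old replicates 3 and 6 and young replicate 6. Scaled to its unshared bases, Itgam lay at 83.9 to 121 CPM per kilobase. Itga5 on its full exon length reached at most 39.2 CPM per kilobase. Itgb7 ranged from 26.8 to 136 CPM in old and from 35.5 to 160.3 CPM in young libraries and was highest in old replicate 2 and young replicate 6, as proliferation genes were. Itga9, a tenascin receptor chain, was at 8.44 ± 3.22 CPM in old and 6.61 ± 2.59 CPM in young libraries. Itga8 was at 1.19 ± 0.325 CPM in old and 1.14 ± 0.289 CPM in young libraries, and Itga10 at 1.22 ± 0.285 CPM in old and 1.198 ± 0.174 CPM in young libraries. The remaining 12 subunits were below 1 CPM, Itgb6 with no count. None of the 7 tested passed, with edgeR adjusted p-values from 0.77 to 0.995.

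Around the receptors, no gene of the pathway lists passed over all genes in either direction. Only 0.0158% of all genes tested passed, so 0 calls do not set a list apart from the rest. Of 14 ligand genes tested (of 31 listed) 0 were called, with a median log2 fold change of -0.08 beside -0.01 over all genes. Vcam1, the ligand of Itga4 with beta 1, was at 1.78 ± 0.897 CPM in old and 5.39 ± 2.48 CPM in young libraries, with 5 of 6 old libraries below every young library and an edgeR adjusted p of 0.77 (unadjusted 0.0014). Spp1, which encodes the alpha v ligand osteopontin and was the most abundant of the list, was at 2172 ± 396 CPM in old and 2318 ± 590.2 CPM in young libraries. Of 18 tested regulators of integrin affinity (of 22) 0 were called, with a median of -0.04. Tln1, which encodes talin, the protein that binds beta chain tails, was at 1020.0 ± 27.9 CPM in old and 1082 ± 119 CPM in young libraries. Dok1, an adaptor, had the lowest p of that list and was at 95.9 ± 6.65 CPM in old and 103 ± 12.9 CPM in young libraries (edgeR adjusted p = 0.78).

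Kinases and adaptors of adhesions and podosomes (34 of 37 tested) had a median of 0.0089, with 0 past the threshold in either direction. Vcl, which encodes vinculin, was at 14.2 ± 4.56 CPM in old and 9.25 ± 2.72 CPM in young libraries, with an edgeR adjusted p of 0.77 (unadjusted 0.019). Gsn, which encodes the actin-severing protein gelsolin, was at 725 ± 157 CPM in old and 794 ± 128 CPM in young libraries. All 20 chaperone, tetraspanin and recycling genes were tested, with a median of 0.0093 and 0 called. Cd63, a tetraspanin, was at 1279 ± 91.2 CPM in old and 1283 ± 116 CPM in young libraries. Rab5a, a GTPase of early endosomes, was at 39.3 ± 12.6 CPM in old and 28.5 ± 7.45 CPM in young libraries. The 11 transcription factors had a median of 0.02 and 0 called. Among them Nfatc1, a factor of osteoclast formation, was at 76.1 ± 3.91 CPM in old and 69.9 ± 4.52 CPM in young libraries (SD, n = 6 each throughout).

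For each subunit, the gene of at least 5 CPM outside the 10 whose log2 CPM followed it most closely over the 12 libraries was looked up among 9414 genes. As the best of so many, each is a description of these libraries and is given with no p, since the genes of a library share its depth and make-up. Pearson's r, Spearman's rho and a trimmed r, taken without the 2 libraries farthest from the subunit's median, are given. Among the beta 2 family it was Rtcb for Itgam (r = 0.96, rho = 0.87, trimmed r = 0.89), Rabl3 for Itgal (r = 0.92, rho = 0.87, trimmed r = 0.84), Gpr137b-ps for Itgax (r = 0.96, rho = 0.71, trimmed r = 0.60) and Mmp12 for Itgb2 (r = 0.92, rho = 0.76, trimmed r = 0.78). Among the other alpha chains it was Nadk for Itga4 (r = 0.97, rho = 0.96, trimmed r = 0.92), Ints6l for Itga6 (r = 0.95, rho = 0.81, trimmed r = 0.88) and Bcl2 for Itgav (r = 0.94, rho = 0.80, trimmed r = 0.67). Among the other beta chains it was Azin1 for Itgb1 (r = 0.96, rho = 0.86, trimmed r = 0.93), Golm1 for Itgb3 (r = 0.94, rho = 0.92, trimmed r = 0.87) and Dguok for Itgb5 (r = 0.88, rho = 0.77, trimmed r = 0.59). The trimmed r was lowest for Itgax, Itgav and Itgb5. Rtcb, an RNA ligase and the gene closest to Itgam, was at 97.7 ± 5.88 CPM in old and 108 ± 5.23 CPM in young libraries, and Mmp12, a macrophage elastase and the gene closest to Itgb2, was at 207 ± 116 CPM in old and 222 ± 165 CPM in young libraries (SD, n = 6 each).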

How the data were processed

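The authors deposited whole-number read counts per gene for 12 libraries, made with featureCounts 1.6.0 on Ensembl 100 gene models for GRCm38, per the file headers. Its recorded command sets no option for strand, mates or reads that touch exons of 2 genes, so by default strand was not used and such reads, like multiply aligned ones, were left out. The labels give no batch. The submitters' processing notes also list STAR and FastQC, unversioned. Columns were matched to labels by group initial and replicate number, and symbols came from a table of gene names. The gene lengths are the merged exon lengths in the deposited table.

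The test of the counts was edgeR 4.0.16 under R 4.3.3 (TMM factors, edgeR's low-count filter, robust quasi-likelihood F test, group alone, Benjamini-Hochberg over 12620 genes, threshold 0.05), and the test was tried on simulated counts with known changes. The outcome of that trial is not given here, and no result rests on it. All 10 subunits passed the filter. Standard errors were derived from the F statistic. CPM carry TMM factors, and log2 CPM used a prior count of 2. Intervals of 95% are normal, from the standard error. Alternatives used DESeq2 1.42.0, limma 3.58.1, other scalings and filters and left-out libraries. The scalings to unshared bases and to the longest coding transcript were chosen after seeing the data. Mates may have been counted separately, so counts are alignment records and not molecules. The members and lists were chosen with earlier results of these data known. Genes named were the 10 subunits, other subunits of at least 1 CPM, per list those of lowest p and highest level, and per subunit the most alike gene. Others (Cd8a, Nkg7, Ccr7, Itga2b, F13a1, Mki67 and the genes sharing exons) were chosen after their values were seen. The list name Cyr61 was not matched.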

Additional observations from a re-analysis of the deposited data

Results flagged for a closer look

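Of 20 sets of 6 libraries (10 subunits in 2 groups), 4 held a library far from the other 5, which was replicate 6 each time. The rule flags about 1 in 20 independent sets by chance. These sets share their libraries, so the 4 cannot be weighed against that rate. Itgax was at 79.5 CPM in old replicate 6, with the other old libraries at 23.2 to 28.7 CPM. Itgav was at 78.9 CPM in old replicate 6, with the others at 38.4 to 51.4 CPM, and at 78.8 CPM in young replicate 6, with the others at 37.0 to 48.4 CPM. Itgal was at 109 CPM in young replicate 6, with the other young libraries at 27.5 to 56.9 CPM.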

How the results depend on the processing

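Under 23 alternatives, 0 of 10 subunits passed the adjusted threshold and Itgam alone had an unadjusted p below 0.05. Its log2 fold changes ran from -0.22 to -0.16 and its adjusted p-values from 0.18 (without young replicate 6 and old replicates 2 and 3) to 0.999. Over all genes tested, the share below an unadjusted 0.05 ran from 2.47% (without old replicate 6) to 18.1% (without young replicate 6 and old replicates 2 and 3). The alternatives reuse the same libraries, so they are not independent of each other. Genes called over the whole table numbered 2 in the main test, 4 without a low-count filter, 11 by DESeq2, and 1 to 5 when a single library was left out. With the replicate number as a replicate block, 4 genes and 0 subunits were called; same-numbered libraries did not all deviate together (correlations from -0.26 to 0.65), and 2 of 6 old libraries correlated best with their own number, so the numbers were not read as pairs. The sign of uncalled subunits turned under some settings, and the cause was not tested. Itgal turned to 0.0029 with RLE factors, 0.0027 with a mean of at least 5 CPM, 0.0037 by DESeq2, 0.13 by limma voom, 0.13 with the replicate block and 0.35 without young replicate 6 and old replicates 2 and 3. Itgb5 turned to -0.00049 in that last setting. Without old and young replicate 6, an alternative chosen after seeing the data, the values were 0.32 for Itgal, -0.072 for Itgax, -0.082 for Itga4 and -0.017 for Itgb5. When a single library was left out, the ranges were -0.15 to 0.44 for Itgal, -0.26 to 0.36 for Itgax, -0.074 to 0.081 for Itga4, -0.12 to 0.24 for Itgav, -0.013 to 0.048 for Itgb1, -0.071 to 0.031 for Itgb2, -0.19 to 0.056 for Itgb3 and -0.0045 to 0.057 for Itgb5, each with both signs. Without young replicate 6 the sign turned for Itgal, Itga4, Itgb2, Itgb3 and Itgb5, and without old replicate 6 for Itgax, Itgav and Itgb1. Leaving out some other single libraries also turned the sign for Itgal, Itga4, Itgav, Itgb1 and Itgb2. Scaling to a reference protein's coding length was not run. Depth limited the subunits little (the lowest count was 490, Itgb3 in young replicate 5).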
